A study of Homo sapiens with 3 samples.

Results

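The genes described are the 35 members of a list for the integrated stress response and the unfolded protein response of the endoplasmic reticulum (ER), matched by gene symbol and identifier among the 19220 genes of the read count table. The list has an ATF4 arm of 18 genes, which holds transcription factors, stress effectors, amino acid and one-carbon enzymes and an amino acid transporter, and a chaperone arm of 17 genes, which holds the ER stress sensors, chaperones and folding enzymes. The rule named genes by function and used no measured value, and all 35 passed the filter on low counts. The study compared drug-resistant cells with parental cells of CAL27, an established human oral squamous cell carcinoma line. 1 labelled RNA-seq library was analysed for each line: CAL27 grown without drug, CAL27/5FU (labelled 5-fluorouracil resistant) kept in 10 μM 5-fluorouracil (5FU), and CAL27/OXA (labelled oxaliplatin resistant) kept in 10 μM oxaliplatin (OXA). All 3 lines shared the same high-glucose DMEM with serum, and all are labelled as CAL27 cells. CAL27/5FU was made by raising the 5FU dose stepwise over months, and how CAL27/OXA was made is not given in the sources used here. The drug was present in the medium of the resistant lines only, so a lasting property of a line and a response to the drug in its medium cannot be told apart. They are also called the 5FU line and the OXA line below. The tables hold 1 further column for each line, numbered as if it were a second library, which matches no labelled sample and was not used. With 1 labelled library per line, no replicate check was made, no p-value is given, and a difference describes these libraries.

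In the integrated stress response, kinases such as PERK and GCN2 phosphorylate the translation initiation factor eIF2, general protein synthesis slows, and translation of ATF4 increases. ATF4 then drives genes for amino acid supply, redox balance and, with CHOP (the product of DDIT3), cell death. The unfolded protein response has PERK, IRE1 and ATF6 as ER sensors, and through spliced XBP1 and cleaved ATF6 it raises ER chaperones, disulfide isomerases and degradation factors. ATF4 is controlled largely at translation and XBP1 at splicing, and neither step is read by a count of a gene's RNA.

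The promoters of the members were searched for the sequence elements known for each arm. RefSeq promoters (GRCh38.p14) were found for 32 of the 35 genes, and the 250 bases before each start were searched on both strands. The ER stress response element was searched as CCAAT, 9 bases of any kind and CCACG. It stood before 25 of all 27305 genes with a promoter entry (0.0916%). Among the members it was found in 7 of the 16 matched genes of the chaperone arm and in 0 of the 16 matched genes of the ATF4 arm. The element was searched because it is known for the chaperone arm, so this contrast is not a test of the arms. The windows below are printed because they mark that contrast, with the element in capitals and 5 bases on each side, 5′ to 3′ on the strand on which it reads.

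HSPA5: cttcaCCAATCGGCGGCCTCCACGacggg

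HSP90B1, far copy: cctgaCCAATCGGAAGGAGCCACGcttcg

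HSP90B1, near copy: acccaCCAATCGCGCCGCACCACGcaccc

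CALR: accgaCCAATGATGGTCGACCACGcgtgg

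CANX: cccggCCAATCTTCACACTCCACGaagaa

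PDIA6: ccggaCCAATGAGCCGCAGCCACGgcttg

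CRELD2: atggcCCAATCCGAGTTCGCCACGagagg

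XBP1: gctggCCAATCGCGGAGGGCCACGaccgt

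On GRCh38.p14 these windows lie at chr9:125241386-125241414 (minus strand) for HSPA5, chr12:103930211-103930239 (plus) and chr12:103930316-103930344 (minus) for HSP90B1, and chr19:12938379-12938407 (minus) for CALR. Those of the others lie at chr5:179698773-179698801 (plus) for CANX, chr2:10812848-10812876 (minus) for PDIA6, chr22:49918549-49918577 (minus) for CRELD2 and chr22:28800598-28800626 (minus) for XBP1. The element of XBP1, without its flanking bases, ends 34 bases before the start and that of CALR 207 bases before.

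A core of the C/EBP-ATF response element, to which ATF4 binds with C/EBP partners, was searched as TGATGNAA. It stood before 1061 of the 27305 genes (3.89%), among them ASNS, ATF3 and CHAC1 of the ATF4 arm and HERPUD1 of the chaperone arm. The related TTGCATCA, whose reverse complement is one form of TGATGNAA, stood before 264 genes (0.967%). Among the members it was found in CHAC1 and HERPUD1, at the same bases. These windows carry TGATGNAA in capitals.

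ASNS: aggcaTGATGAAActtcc

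ATF3: caggaTGATGGAAggctg

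CHAC1: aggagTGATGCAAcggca

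HERPUD1: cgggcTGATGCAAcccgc

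They lie at chr7:97872464-97872481 (minus) for ASNS, chr1:212565211-212565228 (plus) for ATF3, chr15:40953257-40953274 (minus) for CHAC1 and chr16:56931961-56931978 (minus) for HERPUD1. A match describes letters only, and no binding was measured here.

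The libraries held 41786182 (CAL27), 37297713 (CAL27/5FU) and 43455488 (CAL27/OXA) counted reads. The least counted member, CHAC1, had a mean of 407 counts, so no member was near the floor of 3 counts. Squamous epithelial markers were all above 1 FPKM in every library, but their summed level was 5950 FPKM in CAL27, 1370 in the 5FU line and 1590 in the OXA line. The keratins KRT5, KRT6A, KRT14 and KRT17 were more than 2-fold lower in both resistant lines. Of the other markers, TP63 was more than 2-fold lower in the 5FU line only, at 130, 59.9 and 155 FPKM (log2 ratios -1.28 and 0.13). CDH1, at 74.5, 75.9 and 73 FPKM, and EPCAM, at 131, 194 and 147, were not past 2-fold in either line. Fibroblast markers summed to 7.51, 11.9 and 14.9 FPKM in CAL27, CAL27/5FU and CAL27/OXA. COL3A1 was at 0 counts in all libraries, while LUM had 120, 414 and 877 counts and COL1A2 90, 300 and 212, both more than 2-fold above CAL27 in each resistant line. COL1A1, the most counted of these markers, went the other way, at 1387, 1068 and 1050 counts (log2 ratios -0.38 and -0.59). Leukocyte and endothelial markers summed to 41.7, 27.2 and 64.3 FPKM, nearly all of it CD68, and PTPRC had 2, 0 and 0 counts. The part of these marker differences in the results was not tested. In bulk RNA, fewer cells that express a gene and less of its RNA per cell cannot be told apart.

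Below, a gene is compared between libraries in CPM, its reads scaled to a common library total after TMM, a method that balances libraries by the bulk of their genes. Each log2 ratio was computed from them with a prior count of 2, and its 95% interval covers counting error only. A gene was called when its ratio was past 2-fold. FPKM values, which allow for gene length, are used wherever the levels of single genes are compared with each other. Shares of counted reads, which do not allow for length, are given only to follow the same genes across libraries.

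In CAL27/5FU, 0 of the 35 genes was past 2-fold against CAL27, where 8.46% of the 13676 genes tested were called higher and 6.72% lower. In CAL27/OXA, CHAC1 was called higher (6.54% of tested genes were) and SLC7A5, SLC3A2 and PDIA6 were called lower (9.28% were). Between the resistant lines, PPP1R15A was called higher in CAL27/OXA than in CAL27/5FU (4.18% were) and PDIA6 lower (8.38% were). The members were mostly deeply counted genes, which are called less often. Among the 9643 tested genes with at least the mean count of CHAC1, 7.13% were past 2-fold in either direction in CAL27/5FU, 7.97% in CAL27/OXA and 5.24% between the resistant lines. Within 1.5-fold lay 29, 27 and 30 of the 35 members, respectively. These are 82.9%, 77.1% and 85.7%, close to the 80.9%, 78.9% and 85.1% of the tested genes of that depth.

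**Figure D1:**
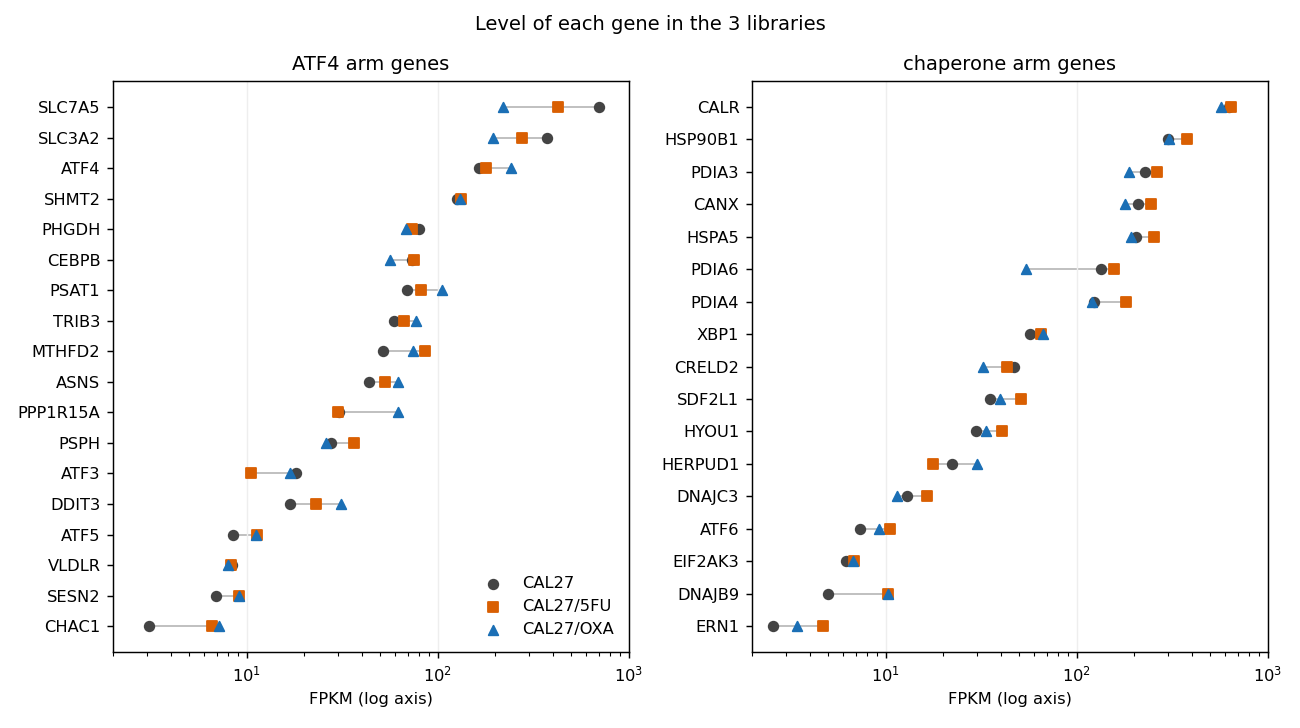
Levels of the 35 genes in the 3 libraries, 1 point per library, as FPKM on a log axis, with the ATF4 arm and the chaperone arm in separate panels. SLC7A5 stands at 704 FPKM in CAL27, 427 in the 5FU line and 221 in the OXA line, and PDIA6 stands apart in CAL27/OXA at 54.7.

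The amino acid transporter of the ATF4 arm carried its largest difference from CAL27, in CAL27/OXA. SLC7A5 encodes LAT1, which brings leucine and other large neutral amino acids into the cell, and SLC3A2 encodes its partner chain 4F2hc. SLC7A5 had 134027 counts in CAL27, 72588 in the 5FU line and 43706 in the OXA line. These are 3440, 1850 and 984 CPM. By FPKM it ranked 82 among all genes in CAL27, 116 in the 5FU line and 260 in the OXA line, and it took 0.321%, 0.195% and 0.101% of the counted reads. The CAL27/5FU level was 0.539 times that of CAL27 (log2 ratio -0.89, 95% interval -0.90 to -0.88), just short of the 2-fold call. The CAL27/OXA level was 0.286 times that of CAL27 (log2 ratio -1.81, interval -1.82 to -1.79).

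SLC3A2 followed the same order, with 881 CPM in CAL27, 574 in the 5FU line and 416 in the OXA line. Its log2 ratio to CAL27 was -0.62 in CAL27/5FU and -1.08 (interval -1.11 to -1.06) in CAL27/OXA. The call of SLC3A2 in CAL27/OXA was lost with scaling by total counts, at -0.95. Per length, SLC7A5 stood at 1.88 times the FPKM of SLC3A2 in CAL27, at 1.56 times in the 5FU line and at 1.14 times in the OXA line. The 2 chains of the transporter were therefore closer to equal RNA levels in the resistant lines than in CAL27.

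SLC7A5 lies at chr16:87830023-87869488 (GRCh38, GENCODE 29, minus strand). Of its 10 nearest tested neighbours, 5 were more than 2-fold lower in CAL27/OXA than in CAL27 and 0 were higher, and their median log2 ratio was -1.02. The ratios of all 10 lay below 0, from -4.09 to -0.44. In CAL27/5FU the median of the same neighbours was 0.05 and 0 were past 2-fold. Between the resistant lines 7 of the 10 were more than 2-fold lower in CAL27/OXA. Their median there was -1.185, and SLC7A5 had -0.91. SLC3A2, at chr11:62856102-62888875, had neighbours with a median of -0.02 in CAL27/OXA and 0 past 2-fold. The level of SLC7A5 in CAL27/OXA thus stood below CAL27 together with its neighbours and that of SLC3A2 without them, and the part of the neighbourhood in the SLC7A5 result was not tested.

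Among the transcription factors, ATF4 itself was 304 CPM in CAL27, 295 in the 5FU line and 407 in the OXA line. Its log2 ratio to CAL27 was -0.04 in CAL27/5FU and 0.42 (interval 0.39 to 0.45) in CAL27/OXA, inside 1.5-fold in both. DDIT3, which encodes the pro-apoptotic factor CHOP, had 18.2, 22.2 and 30.9 CPM in CAL27, CAL27/5FU and CAL27/OXA. Its log2 ratios were 0.29 in CAL27/5FU and 0.76 (interval 0.63 to 0.90) in CAL27/OXA. Neither gene was past 2-fold, and both were highest in CAL27/OXA.

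ATF3, a stress-induced repressor and activator of the same family, was lowest in CAL27/5FU. It had 1569 counts in CAL27, 816 in the 5FU line and 1526 in the OXA line, which gave log2 ratios of -0.95 (interval -1.07 to -0.83) and -0.23. CEBPB, a dimer partner of ATF4, had ratios of -0.14 in the 5FU line and -0.52 in the OXA line. ATF5, a translationally controlled relative of ATF4, had ratios of 0.24 and 0.26. The 5 factors thus held no common order across the lines.

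The feedback and effector genes included both genes of the ATF4 arm called higher. CHAC1, an enzyme that degrades glutathione and a sensitive target of ATF4, had 229 counts in CAL27, 438 in the 5FU line and 555 in the OXA line. Its level was 1.90 times CAL27 in CAL27/5FU (log2 ratio 0.92, interval 0.69 to 1.17) and 2.12 times in CAL27/OXA (1.08, interval 0.86 to 1.32). Both intervals include 2-fold, so at this depth neither ratio can be placed on one side of that line. With total counts CHAC1 was past 2-fold in CAL27/5FU too, at 1.09. CHAC1 lies at chr15:40952962-40956519, and the median of its 10 neighbours in CAL27/OXA was -0.09.

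PPP1R15A encodes GADD34, the regulatory subunit that brings a phosphatase to eIF2 and so ends the response. It had 77.4 CPM in CAL27, 68.6 in the 5FU line and 145 in the OXA line. The CAL27/OXA level was 2.11 times that of CAL27/5FU (log2 ratio 1.08, interval 1.01 to 1.14) and 1.87 times that of CAL27 (0.90, interval 0.84 to 0.96). CAL27 and CAL27/5FU were close, with a ratio of -0.17. With total counts PPP1R15A was past 2-fold against CAL27 in CAL27/OXA, at 1.03. The neighbours of PPP1R15A (chr19:48872392-48876057) had a median of -0.10 between the resistant lines and 0 were past 2-fold.

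The other effectors differed little. TRIB3, a pseudokinase that restrains ATF4, had log2 ratios of 0.00 in the 5FU line and 0.26 in the OXA line. SESN2, which restrains mTORC1 when leucine is short, had 0.23 and 0.27. VLDLR, a lipoprotein receptor induced by ATF4, had -0.18 and -0.21.

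All 6 enzymes of amino acid and one-carbon metabolism lay inside 1.5-fold in every comparison. MTHFD2, a mitochondrial folate enzyme, came nearest in CAL27/5FU, with 121 CPM in CAL27, 179 in the 5FU line and 160 in the OXA line (log2 ratios 0.56 and 0.39). ASNS, which makes asparagine, had 96.1, 104 and 124 CPM, and PSAT1, an enzyme of serine synthesis, had 162, 170 and 226 CPM in the same order. In CAL27/OXA their log2 ratios were 0.37 and 0.48.

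The serine pathway was not uniform. PHGDH, which starts it, had log2 ratios of -0.29 in the 5FU line and -0.36 in the OXA line. PSPH, which ends it, had 0.23 and -0.23. SHMT2, which turns serine to glycine in mitochondria, had -0.09 and -0.07. PSAT1 between them had 0.07 and 0.48, so in CAL27/OXA the 3 steps of serine synthesis had both signs.

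In the chaperone arm, the sensors were expressed at low to middle levels. ERN1, which encodes IRE1, had 431, 701 and 598 counts in CAL27, CAL27/5FU and CAL27/OXA, the lowest FPKM of the arm in each library. Its log2 ratio was 0.69 (interval 0.52 to 0.87) in the 5FU line and 0.28 in the OXA line. EIF2AK3, which encodes PERK, had ratios of -0.04 and -0.02 with intervals that include 0. ATF6 had 0.34 and 0.19, and XBP1, counted over all its splice forms, had 0.01 and 0.08. None of the sensors was past 2-fold.

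Several lumenal chaperones were slightly above CAL27 in CAL27/5FU and slightly below it in CAL27/OXA. HSPA5, which encodes BiP, the main ER chaperone and brake on the sensors, had 873 CPM in CAL27, 963 in the 5FU line and 750 in the OXA line (log2 ratios 0.14 and -0.22). HSP90B1, the ER form of HSP90, had 927, 1040 and 848 CPM (0.16 and -0.13). DNAJC3, a cochaperone of BiP, had 77.8, 88.1 and 63.1 CPM (0.18 and -0.30). For all 3 genes the counting intervals lay above 0 in CAL27/5FU and below 0 in CAL27/OXA, at sizes well inside 1.5-fold. Total counts put HSP90B1 at 0.0047 in CAL27/OXA.

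HYOU1, a nucleotide exchange factor for BiP, and SDF2L1, a partner of BiP cochaperones, had ratios of 0.27 and 0.37 in CAL27/5FU and of 0.03 and 0.04 in CAL27/OXA. DNAJB9, a cochaperone that represses IRE1, had the highest ratios to CAL27 of the arm. It had 530 counts in CAL27, 977 in the 5FU line and 1131 in the OXA line, with log2 ratios of 0.87 (interval 0.72 to 1.03) and 0.90 (interval 0.75 to 1.06). With total counts both DNAJB9 ratios were past 2-fold, at 1.04 and 1.03. CRELD2, an ER stress-induced folding factor, stood on the other side, with 71.9, 58.9 and 45.2 CPM (-0.29 and -0.67). DNAJB9 was thus similar in both resistant lines, and CRELD2 was lowest in CAL27/OXA.

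The lectin chaperones CALR and CANX, which fold glycoproteins, were among the highest of the arm. CALR was the highest in all 3 libraries, at 627 FPKM in CAL27, 645 in the 5FU line and 571 in the OXA line, and its log2 ratios of scaled counts were -0.13 and -0.27. CANX had ratios of 0.04 and -0.37.

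Of the disulfide isomerases, which form and rearrange disulfide bonds, PDIA6 stood apart. It had 14390 counts in CAL27, 15008 in the 5FU line and 6070 in the OXA line, or 369, 383 and 137 CPM. Its level in CAL27/OXA was 0.370 times that of CAL27 (log2 ratio -1.43, interval -1.48 to -1.39) and 0.356 times that of CAL27/5FU (-1.49, interval -1.53 to -1.45). In CAL27/5FU its ratio to CAL27 was 0.05. PDIA3 had 748, 765 and 561 CPM (0.03 and -0.42) and PDIA4 390, 509 and 347 CPM (0.38 and -0.17). Per length, PDIA6 stood at 1.09 times the FPKM of PDIA4 in CAL27, at 0.871 times in the 5FU line and at 0.455 times in the OXA line.

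PDIA6 lies at chr2:10783391-10837977 (minus strand). Of its 10 nearest tested neighbours, 4 were more than 2-fold lower in CAL27/OXA than in CAL27. The median log2 ratio of the 10 was -0.50, against 0.15 in CAL27/5FU. Of the 4, PQLC3, GREB1 and LPIN1 were also below CAL27 in CAL27/5FU (-0.81, -1.44 and -0.97), where PDIA6 was not, and the other was ATP6V1C2. Between the resistant lines the 10 neighbours had ratios from -1.57 to -0.47, with a median of -0.80. The part of the neighbourhood in the PDIA6 result was not tested. ATP6V1C2, on the other strand, shares exon bases with PDIA6 and had 81, 90 and 33 counts, with a ratio of -1.43 in CAL27/OXA. Whether the counting used strand is not given in the sources used here, so reads of the pair cannot be told apart. In the annotation, 16 members share exon bases with a gene on the opposite strand, and the partners of 10 of them are in the count table. These 10 are ATF5, DDIT3, SHMT2, MTHFD2, HSP90B1, CRELD2, DNAJB9, CANX, PDIA3 and PDIA6, and their ratios carry the same limit. DDIT3, at 708, 868 and 1373 counts in CAL27, CAL27/5FU and CAL27/OXA, overlaps MARS, at 7994, 10845 and 12306 counts. The part of these overlaps in the ratios was not tested.

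**Figure D2:**
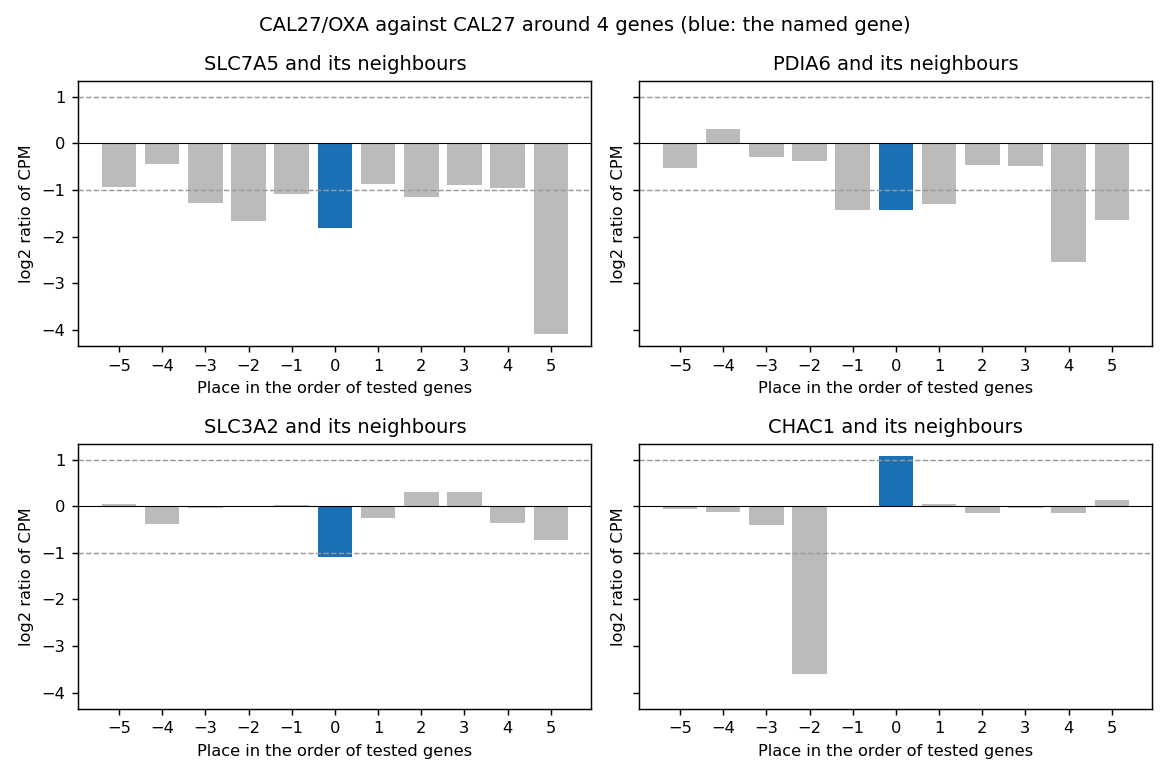
Log2 ratio of CPM, CAL27/OXA against CAL27, of the 4 genes past 2-fold in that comparison (blue) and of the 5 nearest tested genes on each side (grey), in order along the chromosome, with dashed lines at 2-fold. The neighbours of SLC7A5 centre at -1.02 and those of PDIA6 at -0.50, while those of SLC3A2 and CHAC1 centre at -0.02 and -0.09, with 1 neighbour of CHAC1 at -3.61.

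HERPUD1, which anchors the ER-associated degradation complex, ran against the chaperones. It had 1733 counts in CAL27, 1232 in the 5FU line and 2458 in the OXA line. Its log2 ratio to CAL27 was -0.50 (interval -0.61 to -0.39) in CAL27/5FU and 0.31 (interval 0.23 to 0.40) in CAL27/OXA. It is also the 1 matched gene of the chaperone arm whose promoter held TGATGNAA, the core printed for ASNS, ATF3 and CHAC1.

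**Figure D3:**
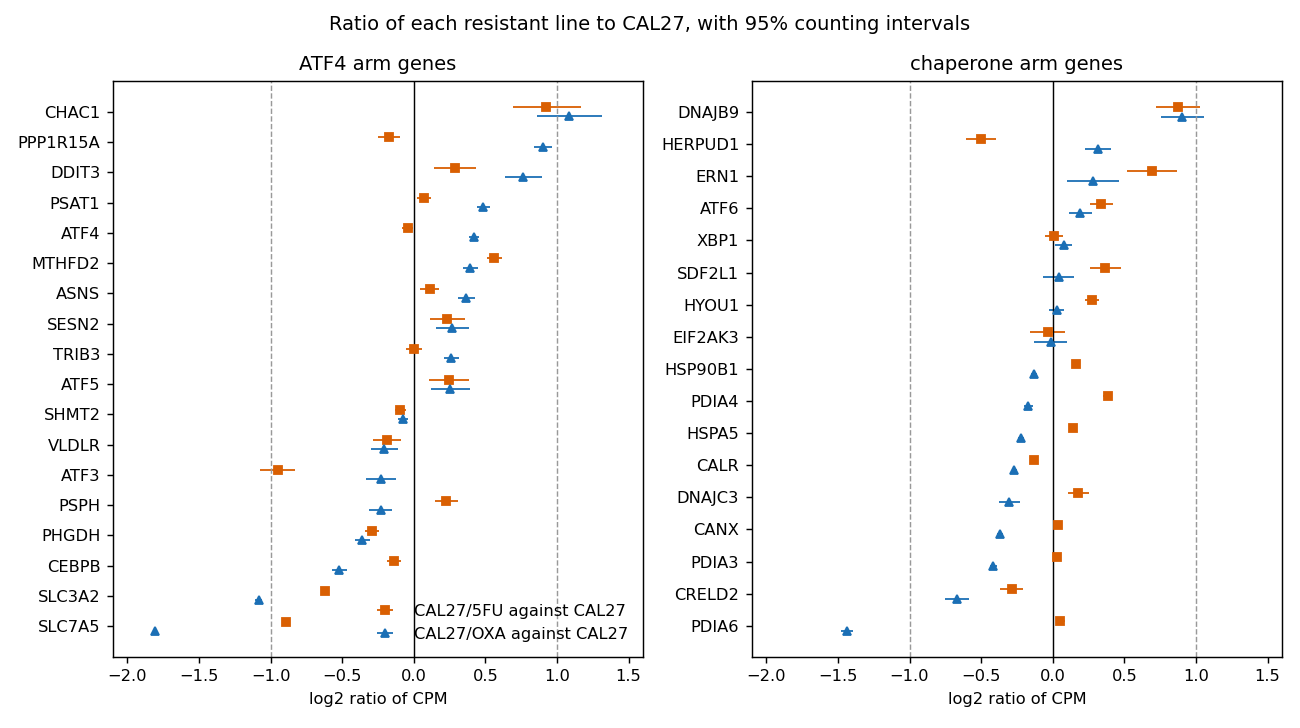
Log2 ratio to CAL27 of each gene in CAL27/5FU and CAL27/OXA, with 95% counting intervals as bars and dashed lines at 2-fold. Most genes lie inside the lines, SLC7A5 (-1.81), SLC3A2 (-1.08) and PDIA6 (-1.43) lie below them in CAL27/OXA, and CHAC1 (1.08) lies above.

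The arms were compared by their medians. In CAL27/5FU the median log2 ratio to CAL27 was -0.02 over the ATF4 arm and 0.14 over the chaperone arm, so the ATF4 arm was lower by 0.16. In CAL27/OXA it was 0.26 over the ATF4 arm and -0.13 over the chaperone arm, so the ATF4 arm was higher by 0.39. The median over all tested genes was -0.0035 in the 5FU line and 0.0055 in the OXA line. Both comparisons use the same CAL27 library. The order of the arms was thus opposite in the resistant lines, at sizes inside 1.5-fold, and with 1 library per line the difference between the lines was not tested.

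The level chosen as zero mattered for each arm, while the difference between arms does not depend on the scaling by construction. With scaling by total counts, which moves the median of all tested genes to 0.17 in the 5FU line and 0.14 in the OXA line, the chaperone arm median in CAL27/OXA was 0.0047, and so no longer below zero. Relative to the median of all genes it stayed lower.

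Between the resistant lines, without the CAL27 library, the median ratio of CAL27/OXA to CAL27/5FU was 0.03 over the ATF4 arm and -0.33 over the chaperone arm. In the chaperone arm 13 of 17 genes had a ratio below 0, each with an interval wholly below 0, as had 35.5% of all tested genes. Of the 12 lumenal, lectin and isomerase chaperones, 11 were below 0, with a median of -0.37, and the exception was DNAJB9 at 0.03. In the ATF4 arm 11 of 18 were above 0 and 7 below. Without regard to sign, the median size of a ratio between the resistant lines was 0.36 over the 35 genes and 0.23 over the tested genes of at least the depth of CHAC1. Against CAL27 these medians were 0.23 and 0.26 in CAL27/5FU and 0.30 and 0.27 in CAL27/OXA.

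The 7 genes with an ER stress response element had a median of -0.36 between the resistant lines, and 6 of them were below 0, with XBP1 at 0.07 as the exception. These genes are largely the abundant chaperones themselves, so the count is not separate from that of the chaperones above. Against CAL27 the median of the same 7 genes was 0.04 in CAL27/5FU, with 5 above 0, and -0.27 in CAL27/OXA, with 1 above 0. The 4 genes with TGATGNAA had ratios above 0 between the resistant lines, from 0.16 for CHAC1, whose interval included 0, to 0.81 for HERPUD1. Of the 9643 tested genes at least as deep as CHAC1, 5269 were above 0 in that comparison and 4374 below. Against CAL27 the 4 genes split, with 2 above and 2 below 0 in CAL27/5FU and 3 above and 1 below in CAL27/OXA.

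The ATF4 arm took 0.567% of counted reads in CAL27, 0.439% in the 5FU line and 0.347% in the OXA line, of which SLC7A5 made up 0.321, 0.195 and 0.101 percentage points. The chaperone arm took 0.588%, 0.696% and 0.529%. The median FPKM in the 3 libraries was 47.8, 59.9 and 62.0 over the ATF4 arm and 46.9, 51.1 and 39.6 over the chaperone arm. FPKM is scaled by the library total, on which the median of all genes in CAL27/5FU lies above that of CAL27, and the ATF4 arm median of -0.02 in CAL27/5FU is on the TMM scale.

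**Figure D4:**
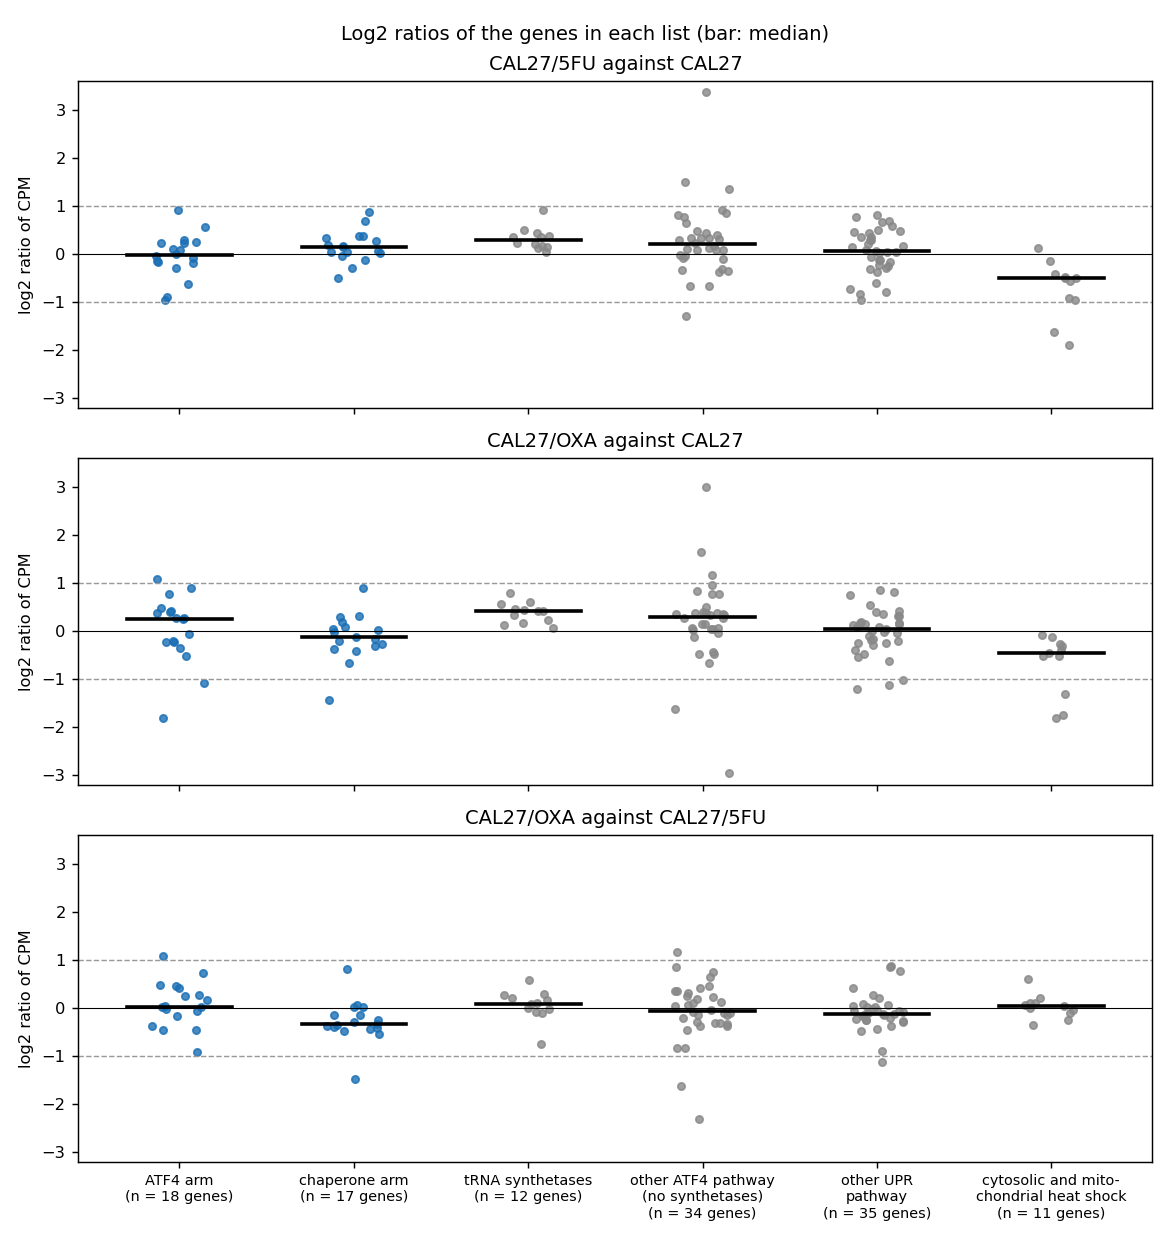
Log2 ratios of the members of each gene list in the 3 comparisons, 1 point per gene, with the median of each list as a bar and dashed lines at 2-fold; the synthetases are drawn apart from the other ATF4 pathway genes. The chaperone arm centres at 0.14, -0.13 and -0.33, and the ATF4 arm at -0.02, 0.26 and 0.03.

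A longer list of ATF4 pathway genes outside the 35 held 48 genes, of which 46 were tested. In CAL27/5FU 35 of the 46 had ratios above 0, with a median of 0.23, and in CAL27/OXA 38 did, with a median of 0.33. These counts include 12 aminoacyl-tRNA synthetases, described below, which were above 0 in both lines. Of all 13676 tested genes, 6792 and 6911 had ratios above 0. In the list of 46, 3 genes were called higher in CAL27/5FU and 1 lower, but 6 were called higher with total counts. The calls were 8.7% of the 46, against 15.2% of all tested genes. GDF15, a secreted stress cytokine, had 1115, 3186 and 1166 counts in CAL27, CAL27/5FU and CAL27/OXA (log2 ratios 1.51 and -0.12). PYCR1, which completes proline synthesis, had 856, 2210 and 2178 counts (1.36 and 1.16). GDF15 was thus high in CAL27/5FU alone of the 3 libraries, and PYCR1 in both resistant lines.

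The third gene called higher was INHBE, a secreted activin chain, at 5, 70 and 61 counts, with a log2 ratio of 3.37 (interval 2.51 to 5.47) in CAL27/5FU and an interval of 2.12 to 5.09 in CAL27/OXA. It lies under the 100 counts that the rule for naming genes asks for and is named after its values were seen. DDIT4, a stress-induced brake on mTORC1, was called lower in both resistant lines, at 62718, 25593 and 23129 counts (-1.30 and -1.63). Among ATF4 targets, then, calls were found in both directions, as they were over all tested genes.

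In CAL27/OXA, 3 of the 46 were called higher and 2 lower, which is 10.9%, against 15.8% of all tested genes. SLC7A11, the cystine importer xCT, had 1748 counts in CAL27, 3073 in the 5FU line and 6260 in the OXA line, with log2 ratios of 0.81 and 1.65. It shares the partner chain SLC3A2 with SLC7A5. Per length, SLC7A5 stood at 162 times the FPKM of SLC7A11 in CAL27, at 50 times in the 5FU line and at 14.8 times in the OXA line. NUPR1, a small stress-induced chromatin protein, was called lower, at 218, 138 and 30 counts (ratio -2.96 in CAL27/OXA). Between the resistant lines 1 gene was called higher and 2 lower, NUPR1 (-2.30) and GDF15 (-1.63). This is 6.52%, against 12.6% of all tested genes. The 1 called higher, SLC43A1, had 8, 6 and 18 counts and is named only to complete the count.

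The 12 cytosolic aminoacyl-tRNA synthetases of that list, which charge tRNAs and include many ATF4 targets, all had ratios above 0 in both resistant lines, and 0 were past 2-fold. Their median was 0.29 in the 5FU line and 0.41 in the OXA line. The highest were WARS in CAL27/5FU (0.92) and AARS in CAL27/OXA (0.79), while AARS had 0.21 in CAL27/5FU and WARS 0.17 in CAL27/OXA. Of the 13676 tested genes, 6792 had ratios above 0 in the 5FU line and 6911 in the OXA line. The interval of SARS (0.04) in CAL27/5FU included 0. All 12 synthetases stayed above 0 under the other scalings, filters and units tried, but these moved their medians little or upward. The medians lay at 0.29 to 0.46 in the 5FU line and 0.41 to 0.54 in the OXA line, so these settings could not decide the signs. The synthetases thus shared a sign at small sizes, while the enzymes among the 35 genes had both signs and the transporter chains had ratios below 0.

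Of 36 further genes of the unfolded protein response, 35 were tested. In CAL27/5FU 0 were past 2-fold, and in CAL27/OXA 3 were called lower, of which 1 was left with total counts or FPKM. These 3 are 8.57% of the list, near the 9.28% of all tested genes called lower in CAL27/OXA. MBTPS1, the protease that cleaves ATF6, had 6627, 6336 and 3282 counts (log2 ratio -1.20 in CAL27/OXA). ERO1A, which reoxidises the isomerases, had 37196, 20843 and 19422 counts (-0.84 in the 5FU line and -1.13 in the OXA line), and DERL1, a channel part of ER-associated degradation, had 4935, 2543 and 2758 counts (-0.96 and -1.03). The median of the list was 0.06 in the 5FU line and 0.05 in the OXA line. Between the resistant lines MBTPS1 was called lower (-1.13), which is 2.86% of the list, against 8.38% of all tested genes. Ratios below 0 were found in 24 of the 35, and in 6719 of the 13676 tested genes.

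The heat shock proteins of the cytosol and mitochondria, folding factors outside the ER, were compared as a contrast. Of 11 genes, 10 had ratios below 0 in the 5FU line and 11 in the OXA line, with medians of -0.51 and -0.45. Of all 13676 tested genes, 6882 and 6764 had ratios below 0. Called lower were 2 of the 11 in the 5FU line (18.2%, against 6.72% of tested genes) and 3 in the OXA line (27.3%, against 9.28%). The mitochondrial HSPD1 had ratios of 0.12 and -0.13, and HSPE1 had -0.15 and -0.08 with intervals that include 0. HSPB1, a small heat shock protein, had 34326 counts in CAL27, 9227 in the 5FU line and 11179 in the OXA line (-1.90 and -1.81). HSPA1A had 10397, 3364 and 3541 counts (-1.63 and -1.74) and HSPA1B ratios of -0.96 and -1.32. HSPA1A and HSPA1B are near-identical copies, so the split of reads between them is uncertain. With total counts, 9 of the 11 were below 0 in each line. Of the 12 lumenal, lectin and isomerase chaperones of the ER, 2 had ratios below 0 in the 5FU line and 9 in the OXA line, with medians of 0.15 and -0.24, and the difference from the heat shock proteins was not tested.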

How the data were processed

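RNA-seq of total RNA was made from 1 labelled library each of CAL27, CAL27/5FU and CAL27/OXA. Libraries were prepared with the NEBNext Ultra kit. The submitters' processing notes name CASAVA 1.8, HISAT2 2.0.5 and GRCh38/hg38, and the counting tool and its strand setting are not given in the sources used here. One of the deposited tables gives raw read counts of each gene, and the other FPKM values, which the authors computed per gene length and library total. A single implied length per gene, within 0.1%, joined both tables for 100% of 14367 genes checked. 3 further per-sample columns, 1 for each line, match no labelled sample and were not used.

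The 3 libraries were scaled together by TMM (edgeR 4.0.16, R 4.3.3), with factors of 0.932, 1.05 and 1.02. A prior count of 2 was added for log2 CPM ratios. The 2-fold threshold, which the study also used, was applied where the mean over the libraries reached 10 counts. Intervals are exact 95% Clopper-Pearson intervals on the pair of counts (scipy 1.17.1) and cover counting error only. PCR reads without molecular identifiers are not independent molecules. The floor of 3 counts corresponds to 0.0675 to 0.0770 CPM. With 1 library per line, no p-value was computed. Alternatives were DESeq2 1.42.0 size factors, total counts, upper quartile, prior counts of 0.5 and 5, other filters, and FPKM with pseudocounts of 1 and 0.1. The ratio script was checked on simulated data.

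The 35 genes and the further lists were chosen with earlier results of these data known. All 35 are named. Of the further pathway lists (not the cell type markers), genes past 2-fold with a mean of at least 100 counts are named, up to 3 in each direction. The 5 nearest tested genes on each side are given for members past 2-fold. Gene positions are from GENCODE 29 (GRCh38) and promoters from RefSeq (GRCh38.p14). PDIA3, SHMT2 and PSPH had no promoter entry. FGF21, SLC7A3 and DERL3 did not pass the filter. The file lists the synthetases under older symbols such as AARS and WARS.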

Additional observations from a re-analysis of the deposited data

Results flagged for a closer look

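In 11 genes the ratios to CAL27 had opposite signs in CAL27/5FU and CAL27/OXA, each with a counting interval that did not reach 0. Of all tested genes 11.8% had this, and of those at least as deep as CHAC1 14.0%, against 31.4% of the 35. These shares are not like for like, because deeper counts narrow the intervals. The 11 genes had mean counts from 1808 (HERPUD1) to 42263 (CANX), against 407 for CHAC1. CANX and PDIA3 entered with ratios of only 0.04 and 0.03 in CAL27/5FU. With 1 library per line and a shared CAL27 library, the difference between the lines was not tested. The log2 ratio of CAL27/OXA to CAL27/5FU was 0.46 for ATF4, 1.08 for PPP1R15A and 0.81 for HERPUD1, which were below CAL27 in CAL27/5FU and above it in CAL27/OXA. It was -0.46 for PSPH, -0.36 for HSPA5, -0.29 for HSP90B1, -0.48 for DNAJC3, -0.41 for CANX, -0.45 for PDIA3, -0.55 for PDIA4 and -1.49 for PDIA6, which were above CAL27 in CAL27/5FU and below it in CAL27/OXA. PPP1R15A and PDIA6 are the 2 past 2-fold. The sign in CAL27/5FU was not held under every scaling and unit for ATF4, nor the sign in CAL27/OXA for HSP90B1.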

How the results depend on the processing

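No paired analysis was possible because each line has 1 labelled library, and for the same reason no replicate could be left out. A scaling moves both arm medians alike and the filters remove none of the 35 genes, so the difference between the arms could change only with the prior count or FPKM. It lay at -0.16 in CAL27/5FU, 0.35 to 0.39 in CAL27/OXA and 0.35 to 0.36 between the resistant lines. The arm medians moved with the scaling, and that of the chaperone arm in CAL27/OXA changed sign. By total counts the ATF4 and chaperone arms had medians of 0.15 and 0.31 in CAL27/5FU and of 0.39 and 0.0047 in CAL27/OXA. With FPKM and a pseudocount of 1 they were 0.15, 0.31, 0.36 and 0.0046, and with 0.1 they were 0.15, 0.31, 0.39 and 0.0046. By upper quartile the chaperone arm had 0.19 and -0.10. With total counts and with FPKM at 0.1, 2 members (CHAC1 and DNAJB9) were past 2-fold in CAL27/5FU, against 0. In CAL27/OXA these settings called 5 members, with PPP1R15A and DNAJB9 in and SLC3A2 out, and FPKM at 1 called 4, with PPP1R15A in and SLC3A2 out. Asking for the whole interval past 2-fold removed CHAC1 in CAL27/OXA. In the longer ATF4 list, 6 genes were called higher in CAL27/5FU with total counts and 5 with FPKM at 0.1, against 3, and in the longer list of the unfolded protein response 1 was called lower in CAL27/OXA with total counts and both FPKM settings, against 3. The sign held under every setting for 30, 32 and 31 of the 35 genes in the 3 comparisons. It did not for ATF4, CEBPB, SHMT2, EIF2AK3 and CALR in CAL27/5FU, for SHMT2, EIF2AK3 and HSP90B1 in CAL27/OXA, or for ATF5, SHMT2, EIF2AK3 and DNAJB9 between the resistant lines. Against CAL27 the settings moved the ratios little or upward, so they could not decide a sign above 0. Between the resistant lines they moved the ratios little or downward, so they could not decide a sign below 0. Over all genes, total counts moved the share of calls that were higher from 55.7% to 67.2% in CAL27/5FU and from 41.3% to 51.1% in CAL27/OXA. Without the filter, 1899 genes were called higher and 1555 lower in CAL27/5FU, 1348 and 1925 in CAL27/OXA and 981 and 1861 between the resistant lines. With FPKM and a pseudocount of 1 these were 503 and 311, 368 and 481, and 165 and 437.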
